A study of Mus musculus with 6 samples.

Results

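The genes described here are the 37 rows of the deposited count table whose names begin with mt-, which are the genes of the mouse mitochondrial genome, out of 41819 rows in all. They were picked out by this name, with earlier results of these data known, and comprise 13 protein genes, 2 ribosomal RNAs and 22 transfer RNAs. The libraries come from 6 cultures of a single clone of mouse 3T3 cells, an immortalized line of Swiss albino embryonic fibroblasts, that carried a lentiviral cassette with human PARG cDNA (hPARG) and mClover3 under the TetOne doxycycline-inducible promoter and was kept under puromycin. For 72 h, 3 cultures grew without doxycycline (control) and 3 grew with 500 ng/ml doxycycline (hPARG). The sample labels speak of wells of a plate and the methods of dishes, and dish is used here. PARG degrades poly(ADP-ribose), and the study asked which genes change their expression when its level is raised. Doxycycline is known to bind the mitochondrial ribosome and to slow mitochondrial protein synthesis. Every hPARG dish and no control dish received it, so effects of doxycycline and of hPARG on these genes cannot be told apart.

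The mitochondrial genome is a small circle, present in many copies per cell, that codes for subunits of respiratory complexes I, III, IV and V and for the RNAs needed to translate them. Complex II is made from nuclear genes alone. Transcription runs around both strands as long precursors, from which tRNAs are cut out so that the mRNAs between them are released. Most mitochondrial mRNAs then receive a short poly(A) tail, and a poly(A)-selected library can therefore contain them. Mt-Nd6, the protein gene of the opposite strand, is known to lack a stable poly(A) tail.

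Total counts per dish lay between 21619908 and 25263818, and a floor of 3 counts, which covers counting error only, corresponded to between 0.119 and 0.139 CPM (the count of a gene scaled to the size of its library). All 8 fibroblast markers passed the filter on low counts, at 3.05 to 4024 CPM, and their summed level was 7154 to 8327 CPM in the control and 8259 to 9474 CPM in the hPARG dishes. Of the 13 markers of leukocytes, epithelium, endothelium and red cells, none exceeded 2.80 CPM. The cassette itself has no row of its own, and the mouse gene Parg differed by 0.04 on the log2 scale (standard error 0.112). Libraries stood apart in 2 ways that touch the mitochondrial genes. HPARG dish 3 held 310589 counts on them, against 152607 to 226344 in the other 5 dishes, so fold changes of the mitochondrial mRNAs are also given without it. The dishes numbered 2 of both groups deviated together across all genes (r = 0.61 over 11509 genes, which are not independent replicates).

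Every one of the 13 protein genes had counts in every dish. In contrast, mt-Rnr1 and mt-Rnr2, the 12S and 16S ribosomal RNAs, and the 22 tRNAs were listed at 0 in all 6 dishes. The table listed at 0 all 19786 rows of the 28 GENCODE gene types other than protein-coding genes and polymorphic pseudogenes, long noncoding RNAs among them, while 16880 of 21951 protein-coding genes had counts. The zeros of the mitochondrial rRNAs and tRNAs are thus shared with each noncoding gene type in the table and give no level for these RNAs. What follows concerns the mRNAs of the 13 protein genes, counted gene by gene even where a pair of genes shares an mRNA.

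On the GRCm38 mitochondrial chromosome, 12 of the 13 protein genes lie on the + strand and mt-Nd6 (M, 13552 to 14070) on the - strand. Their annotated lengths run from 204 bases (mt-Atp8) to 1824 bases (mt-Nd5), each gene is a single exon without introns, and 8 of them are followed on the map by a tRNA gene. The coding sequence starts with ATG in 9 genes, with GTG in mt-Nd1, ATA in mt-Nd2, ATT in mt-Nd3 and ATC in mt-Nd5. In 10 genes the stop codon is complete within the annotated gene. The last 2 bases of the TAG stop of mt-Nd1 and of mt-Nd2 also belong to the tRNA gene that follows on the same strand. In mt-Co3, mt-Nd4 and mt-Cytb the annotated gene ends on a single T of the stop codon, and the poly(A) tail is known to supply the remaining bases. The last 30 bases of these 3 genes are shown with the part of the stop codon encoded in the genome in capitals, followed by those of mt-Nd6, whose end is complete and not set by a tRNA.
mt-Co3: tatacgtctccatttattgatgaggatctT
mt-Nd4: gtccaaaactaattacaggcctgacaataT
mt-Cytb: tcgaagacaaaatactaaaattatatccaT
mt-Nd6: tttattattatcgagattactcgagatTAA
Base composition also set mt-Nd6 apart. G made up 28.1% of its RNA-like strand and between 5.88% and 16.1% of the other 12.

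A pair of genes overlap in each of 2 mRNAs, which limits how reads can be divided between them. The last 43 bases of mt-Atp8 (M, 7927 to 7969) are also the first of mt-Atp6, 21.1% of the smaller gene. The last 7 bases of mt-Nd4l (M, 10167 to 10173) are also the first of mt-Nd4. Both junctions are printed with 15 bases on each side, and the shared bases are in capitals.
mt-Atp8 and mt-Atp6: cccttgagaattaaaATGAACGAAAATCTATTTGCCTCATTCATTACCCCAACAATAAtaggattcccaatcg
mt-Nd4l and mt-Nd4: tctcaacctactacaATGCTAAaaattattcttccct
Mt-Nd5 and mt-Nd6 share 14 bases on opposite strands. Since no use of strand in counting is stated, reads from mt-Nd6 and from RNA antisense to it cannot be told apart, and its values are uncertain in this respect.

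Nuclear copies of mitochondrial DNA are a further limit. Over 95% of the 150-base windows of mt-Co2, mt-Atp6, mt-Co3, mt-Nd3 and mt-Nd4l occurred without a mismatch in nuclear pseudogenes of GENCODE release M21, chiefly Gm28661, Gm10925, Gm28437, Gm28438 and Gm10222 on chromosome 1. The share was 59.2% for mt-Nd4 and 23.6% for mt-Co1. No such window was found for mt-Nd1, mt-Nd2, mt-Nd5, mt-Nd6, mt-Cytb or mt-Atp8. Reads were allowed up to 10 hits, and how those with several hits were shared out is not given in the sources used here. The pseudogenes named have no row in the count table, so reads on them cannot be looked up there.

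Counts per length differed widely among the 13 genes in the control. Expressed as CPM per kb of coding length, mt-Co2 had the highest control mean, 1290.2 ± 193 (SD, n = 3), followed by mt-Co1 at 1095 ± 165 and mt-Co3 at 1089 ± 151. These are the 3 catalytic core subunits of complex IV, cytochrome c oxidase. Next came mt-Atp6 (867), mt-Nd3 (848), mt-Nd1 (709), mt-Cytb (534), mt-Nd4 (334), mt-Nd2 (291), mt-Nd5 (224) and mt-Nd6 (208) as control means of CPM per kb. Of the genes with over 95% of their windows in nuclear copies, mt-Co2, mt-Co3, mt-Atp6 and mt-Nd3 stood high in this order and mt-Nd4l low. The part of such copies in these levels was not tested. The lowest values belonged to the 2 shortest genes, mt-Nd4l at 95.5 ± 31.2 and mt-Atp8 at 41.6 ± 16.5 CPM per kb (SD, n = 3). Mt-Nd4l shares an mRNA with mt-Nd4 (334), and mt-Atp8 with mt-Atp6 (867). The gaps within these pairs are therefore not differences between separate mRNAs, and the part of read assignment in them was not tested. Between neighbours in this order the ranges of the 3 control dishes overlapped in 8 of 12 steps. Such ranges do not compare the genes within a dish. Compared dish by dish, the order turned in some control dish between mt-Co1 and mt-Co3, mt-Atp6 and mt-Nd3, and mt-Nd5 and mt-Nd6. At the other overlapping steps it was the same in every control dish, and these differences were not tested. The 4 steps without overlap lay below mt-Nd1, mt-Cytb, mt-Nd6 and mt-Nd4l. Of the 13 genes, 9 held the same position in the hPARG means, and the others moved by 1 position.

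**Figure D1:**
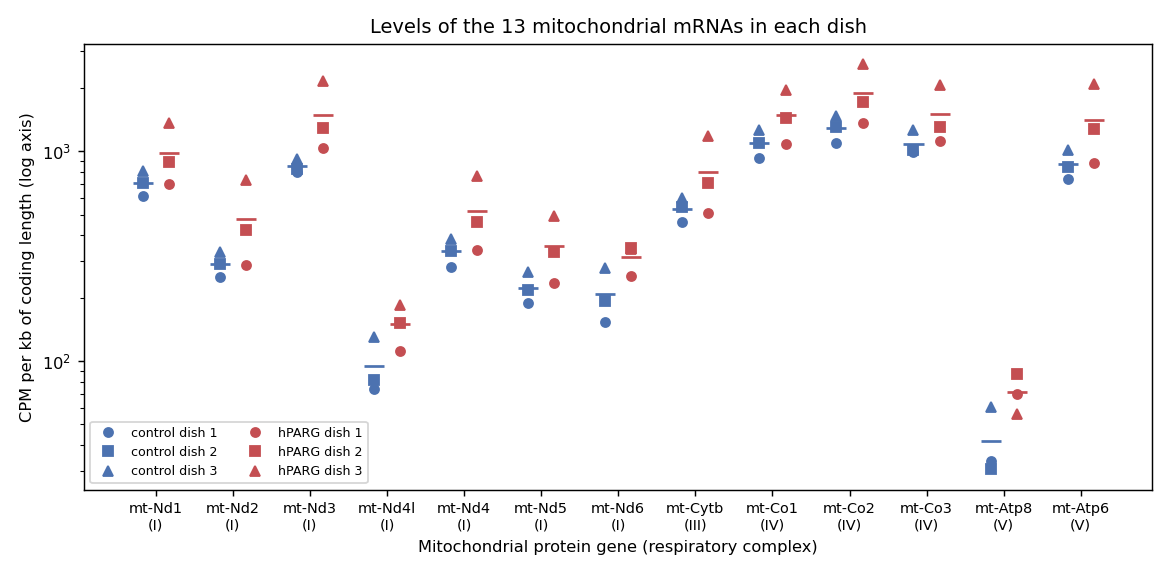
Level of each mitochondrial mRNA in each dish, as CPM per kb of coding length on a log axis, with genes grouped by respiratory complex; circles, squares and triangles are dishes 1, 2 and 3 and short lines are group means. The triangle of hPARG dish 3 is the highest of the 6 dishes for 11 of 13 genes, and hPARG dish 1 lies among the control dishes for most.

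The 13 mRNAs together took a larger mean share of the counts in hPARG dishes, but the groups overlapped. In the control dishes they held 0.604%, 0.707% and 0.782% of all counts, and in the hPARG dishes 0.697%, 0.947% and 1.38%. HPARG dish 1 lay below 2 of the control dishes, hPARG dish 2 moderately above all of them, and hPARG dish 3 far above. The means were 0.698 ± 0.0895% and 1.01 ± 0.347% (SD, n = 3). The difference of 0.311 percentage points had p = 0.3 in a two-sided exact permutation test, in which 3 dishes against 3 cannot give a p under 0.1, and p = 0.45 after adjustment over the 6 shares tested. Without hPARG dish 3 the difference was 0.124 percentage points. In RNA from whole dishes, a change in the number of mitochondrial genomes, in RNA per genome or in the cells of the dish cannot be told apart.

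Gene by gene, all 13 mRNAs had higher means in hPARG than in control dishes, with log2 fold changes between 0.45 and 0.81 and a median of 0.64. The median over all 11509 genes tested was 0.0038, and 0.982% of them exceeded the median of the mitochondrial genes. None of the 13 passed the study's thresholds of an FDR under 0.05 and a change of more than 2-fold in edgeR's quasi-likelihood test. Of all 11509 tested genes, 10 passed (0.0869%), 1 of them as higher (0.00869%). The study called more genes at these thresholds with its own test, so the test used here was the stricter. Their FDR values (adjusted over all tested genes) lay between 0.935 and 0.999. At an unadjusted p under 0.05 there were 8 of 13, all higher, where 1.42% of all tested genes were higher at this p. Of the 13 mRNAs, 12 were lowest in control dish 1 and 11 were highest in hPARG dish 3. They are not independent of each other, so 8 of 13 beside 1.42% is not a test of these genes as a set. The number of members at this p depended on the dishes used. It was 1 without control dish 1 (138 of 11594 tested genes higher at this p) and 1 without control dish 2 (293 of 11654). It was 2 without hPARG dish 3 (93 of 11636) and 12 without hPARG dish 1 (180 of 11678). Without control dish 3 it was 9 (164 of 11694), and without hPARG dish 2 it was 7 (188 of 11655). Without hPARG dish 3 the median log2 fold change was 0.29. A fit with the dish number as a block gave 12 of 13 an FDR under 0.05 in edgeR and still none above 2-fold. At this FDR 1.31% of all tested genes were higher and 2.87% differed in either direction. The study names no pairing of dishes, and only the dishes numbered 2 correlated best with each other, so whether this block applies is not known.

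**Figure D2:**
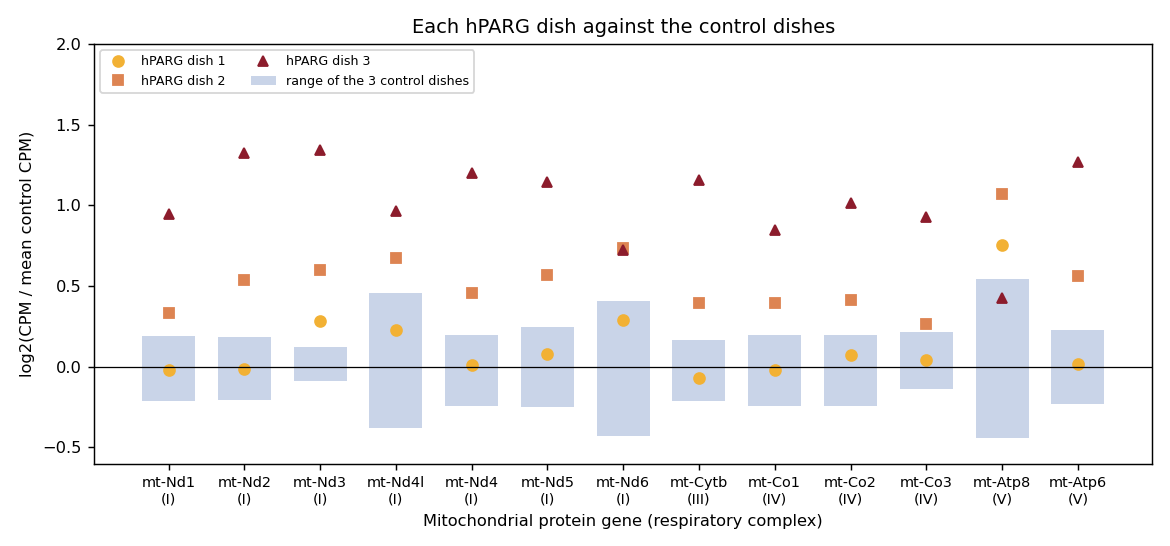
Log2 ratio of each hPARG dish to the mean of the control dishes for each mitochondrial mRNA (CPM), with the pale bars giving the range of the 3 control dishes. HPARG dish 2 lies above every bar and hPARG dish 3 above all but that of mt-Atp8, while hPARG dish 1 lies above the bars of mt-Nd3 and mt-Atp8 only.

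Complex I, the NADH dehydrogenase through which electrons enter the chain, contributes 7 of the 13. Mt-Nd3 (ENSMUSG00000064360, M, 9459 to 9806), a small membrane subunit, had the lowest p of all members. Its level was 278, 286 and 321 CPM in the control dishes and 359, 448 and 749.9 CPM in the hPARG dishes. This was the only member whose 3 hPARG dishes all lay above the 3 control dishes, a pattern seen in 3.61% of all tested genes. Its log2 fold change was 0.81 (standard error 0.252, unadjusted p = 0.0123, FDR = 0.935), and without hPARG dish 3 it was 0.45.

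Mt-Nd1, which lies in the membrane arm next to the quinone site, was at 586, 676 and 774 CPM in the control and 669, 854 and 1306 CPM in the hPARG dishes. Mt-Nd2, one of the proton-pumping subunits, was at 262, 300.3 and 343 CPM in the control and 299, 437 and 754 CPM in the hPARG dishes. Both had hPARG dish 1 within the range of the control and hPARG dish 3 far above it. The log2 fold changes were 0.47 (standard error 0.24) for mt-Nd1, the smallest of complex I, and 0.72 (standard error 0.305) for mt-Nd2. Without hPARG dish 3 they were 0.17 and 0.29.

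Mt-Nd4 and mt-Nd5 are the other large proton-pumping subunits of the membrane arm. Mt-Nd4 stood at 389, 464 and 528 CPM in the control dishes and at 465, 634 and 1057 CPM in the hPARG dishes. Mt-Nd5 stood at 344, 397 and 484 CPM in the control dishes and at 431, 605 and 901 CPM in the hPARG dishes. In each of these genes, too, the groups overlapped through hPARG dish 1. The log2 fold changes were 0.64 for mt-Nd4 and 0.66 for mt-Nd5, and without hPARG dish 3 they were 0.25 and 0.34.

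The remaining genes of complex I are mt-Nd4l and mt-Nd6. Mt-Nd4l, which shares an mRNA with mt-Nd4, was at 21.8, 24.3 and 39.0 CPM in the control and 33.2, 45.1 and 55.3 CPM in the hPARG dishes, with hPARG dish 1 within the control range and hPARG dish 3 highest. Its log2 fold change was 0.65, and 0.47 without hPARG dish 3. Mt-Nd6 was at 80.2, 100.3 and 144 CPM in the control and 132, 179.9 and 178 CPM in the hPARG dishes. For mt-Nd6, hPARG dish 3 was no higher than hPARG dish 2, and the ratio of hPARG dish 3 to hPARG dish 1 was 1.35. That ratio was 1.67 for mt-Nd4l and 0.799 for mt-Atp8, and between 1.82 and 2.53 for the other 10 members, differences that were not tested. The log2 fold change of mt-Nd6 was 0.60 (standard error 0.222), and without hPARG dish 3 it was 0.53.

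In complex III, the cytochrome bc1 complex, mt-Cytb is the single mitochondrial gene and codes for the subunit that holds the quinone sites. It was at 528, 619 and 687 CPM in the control dishes and at 583, 805 and 1361 CPM in the hPARG dishes. The highest hPARG dish held 2.33 times the level of the lowest. A log2 fold change of 0.58 (standard error 0.286, unadjusted p = 0.0761, FDR = 0.999) fell to 0.18 without hPARG dish 3.

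The 3 genes of complex IV had the highest levels and the smallest fold changes by complex, with a median log2 fold change of 0.46, although without hPARG dish 3 that of complex III (0.18) lay below it (0.20). Mt-Co1, the catalytic subunit with the haem a3 and copper site, was at 1432, 1701 and 1943 CPM in the control and 1672, 2224 and 3043 CPM in the hPARG dishes. Mt-Co2, which takes electrons from cytochrome c, was at 747, 891 and 1009.7 CPM in the control and 930.0, 1175 and 1779 CPM in the hPARG dishes. Mt-Co3 was at 775, 797 and 990.0 CPM in the control and 878, 1027 and 1623 CPM in the hPARG dishes. HPARG dish 1 lay within the control range for all 3. Mt-Co2 had the lowest p of the complex. Its log2 fold change was 0.55 (standard error 0.238, unadjusted p = 0.0497, FDR = 0.999) and went to 0.25 without hPARG dish 3. The values for mt-Co1 and mt-Co3 without that dish were 0.20 and 0.16.

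Complex V, the ATP synthase, has a pair of mitochondrial subunits encoded by overlapping genes of a shared mRNA, and the counts of the pair diverged in hPARG dish 3. Mt-Atp6, which forms the proton channel with the c ring, was at 503, 577 and 692 CPM in the control and 599, 874 and 1421 CPM in the hPARG dishes. Mt-Atp8, a short stator subunit, was at 6.87, 6.23 and 12.3 CPM in the control and 14.3, 17.8 and 11.4 CPM in the hPARG dishes. Thus hPARG dish 3 was the highest of 6 dishes for mt-Atp6 but within the control range for mt-Atp8. Mt-Atp8 rested on 145 to 433 counts per dish, the fewest of any member. Its log2 fold change was 0.78 (standard error 0.279, unadjusted p = 0.0236, FDR = 0.999) and rose to 0.93 without hPARG dish 3, while that of mt-Atp6 went from 0.71 to 0.32.

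**Figure D3:**
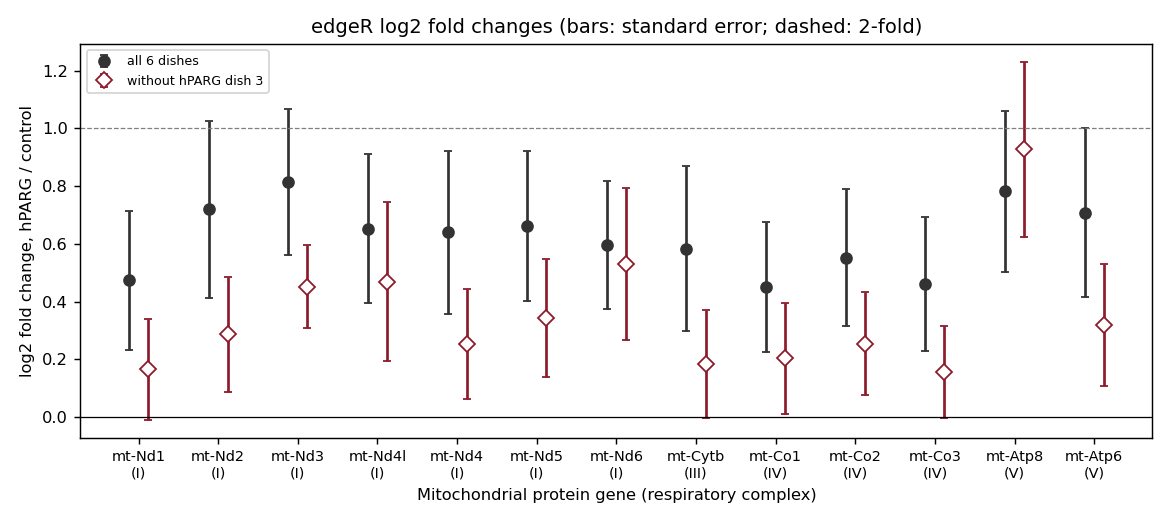
Log2 fold change (hPARG against control, edgeR) of each mitochondrial mRNA with its standard error, for all 6 dishes (filled) and without hPARG dish 3 (open); the dashed line marks 2-fold. All points lie above 0 and below the dashed line, and leaving out hPARG dish 3 lowers all but that of mt-Atp8.

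The make-up of the mitochondrial mRNA pool was measured as the share of each complex in the counts on the 13 genes. Complex I made up 32.9%, 32.9% and 33.0% in the control dishes and 33.8%, 34.3% and 35.1% in the hPARG dishes. Complex IV made up 49.6%, 49.6% and 49.5% in the control dishes and 49.3%, 47.5% and 45.3% in the hPARG dishes. Neither pair of groups overlapped, but for complex IV the lowest control dish (49.48%) and the highest hPARG dish (49.26%) lay close together. As parts of a fixed total, the shares of complexes I and IV are not separate results. The differences in the mean shares were 1.47 percentage points for complex I and -2.23 percentage points for complex IV, each with p = 0.1 in the two-sided exact permutation test, the smallest it can give here, and p = 0.3 after adjustment over 6 shares. Without hPARG dish 3 they were 1.12 and -1.19 percentage points. Complex V went from 8.64 ± 0.177% to 9.43 ± 0.698% and complex III from 8.85 ± 0.212% to 8.82 ± 0.669% (SD, n = 3), with overlap between the groups in both.

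Single genes left the range of their control shares in every hPARG dish, 9 of 13 in dish 1, 10 in dish 2 and 12 in dish 3. A range of 3 dishes is easily left by a further dish, and shares of a fixed total depend on each other. These counts were not tested and do not by themselves show a change in make-up. In hPARG dish 3, mt-Co1 took 21.4% of the mitochondrial counts, below its 24.1% to 24.9% in the control. Mt-Nd6 took 1.87% in hPARG dish 1 and 1.93% in hPARG dish 2, above its 1.35% to 1.80% in the control, but 1.25% in hPARG dish 3, below that range. Mt-Atp6 took 9.98% in hPARG dish 3 (control 8.43% to 8.69%), and mt-Nd2 took 5.30% (control 4.30% to 4.39%). The shares above and below the control range numbered 5 and 4 in hPARG dish 1, 7 and 3 in dish 2, and 6 and 6 in dish 3. The share farthest from the control mean was that of dish 3 for 6 genes, of dish 2 for 5 and of dish 1 for 2.

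The members whose sequence recurs in nuclear pseudogenes and those without such a copy were set side by side. The 5 genes with over 95% of their windows in nuclear copies had a median log2 fold change of 0.65 (range 0.46 to 0.81). The 6 genes without a shared window had a median of 0.63 (range 0.47 to 0.78). In each of these groups 4 genes had an unadjusted p under 0.05, and neither mt-Co1 nor mt-Nd4, which are copied in part, did.

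Nuclear genes supply most subunits of the same complexes, and 76 of 77 listed subunits were matched and tested. None passed the FDR in either direction, and none had an unadjusted p under 0.05. When hPARG dish 2 was dropped, 5 were higher at this p, as were 188 of all 11655 tested genes. Their log2 fold changes lay between -0.08 and 0.48 with a median of 0.10, and 60 of 76 were higher in hPARG dishes (78.9%, against 50.9% of all tested genes). This direction rested on single dishes. Without hPARG dish 3, 33 of 76 were higher (median -0.01), and without control dish 2, 28 were (median -0.04), while without control dish 3 or hPARG dish 2 there were 73 (median 0.24 in both). For the mitochondrial mRNAs all 13 stayed higher in each of these fits. By complex, the median for nuclear subunits was 0.12 in complex I, 0.13 in complex III, 0.13 in complex IV and 0.09 in complex V, and the mitochondrial medians were 0.65, 0.58, 0.46 and 0.74. Without hPARG dish 3 the nuclear medians of these 4 complexes lay between -0.02 and 0.00 and the mitochondrial ones were 0.34, 0.18, 0.20 and 0.62. In complex II, which has no mitochondrial gene, the 4 subunits had a median of -0.01. Ndufb4, an accessory subunit of complex I, had the lowest p among those higher in hPARG cells, at 53.0, 40.3 and 67.6 CPM in the control and 73.1, 47.0 and 104 CPM in the hPARG dishes (log2 fold change 0.48, standard error 0.293, FDR = 0.999), and without hPARG dish 3 its value was 0.16. Ndufs1, the largest core subunit of complex I, had the lowest p among those lower (log2 fold change -0.07, standard error 0.0997, FDR = 0.999).

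**Figure D4:**
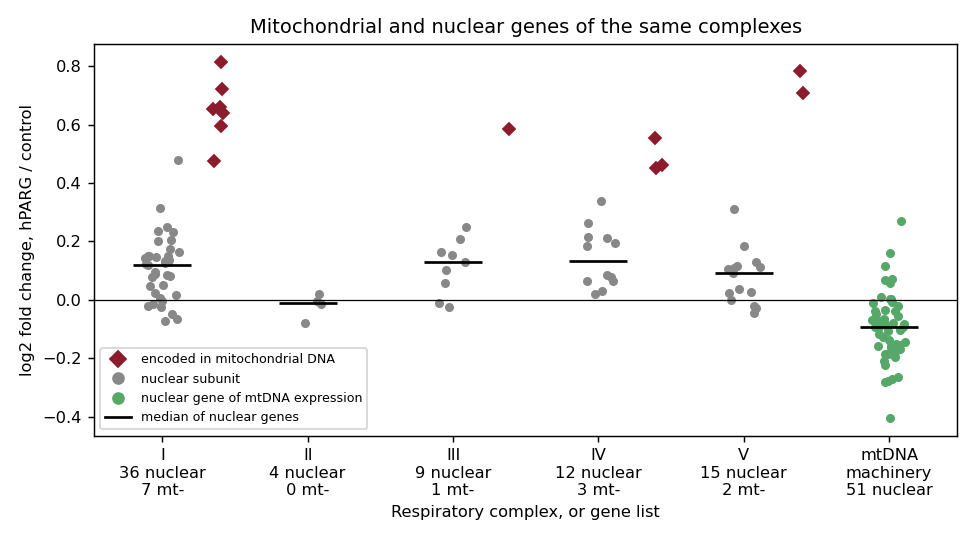
Log2 fold change (hPARG against control) of tested genes by respiratory complex, with mitochondrial genes as diamonds, nuclear subunits as grey points and 51 nuclear genes of mitochondrial DNA expression as green points; black lines are medians of the nuclear genes. In every complex with mitochondrial genes these lie above the nuclear median, and the lowest of them (0.45) is next to the highest nuclear subunit, Ndufb4 (0.48, and 0.16 without hPARG dish 3).

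Summed over the list, nuclear subunits and mitochondrial mRNAs differed in the size of their changes between dishes. Outside the dishes numbered 2 both sums had the same order. From lowest to highest it was control dish 1, hPARG dish 1, control dish 3 and hPARG dish 3. The mitochondrial sum was 41.7%, 59.2% and 50.1% of the nuclear sum in the control dishes and 45.2%, 79.0% and 88.5% in the hPARG dishes. From hPARG dish 1 to hPARG dish 3 the mitochondrial sum was 2.02 times as high and the nuclear sum 1.03 times. Both dishes numbered 2 had lower nuclear sums (11551 and 11801 CPM) than the other 4 dishes (14275 to 16087 CPM), and their mitochondrial sums were not the lowest of their groups. The part of this difference between dishes in the mitochondrial results was not tested.

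**Figure D5:**
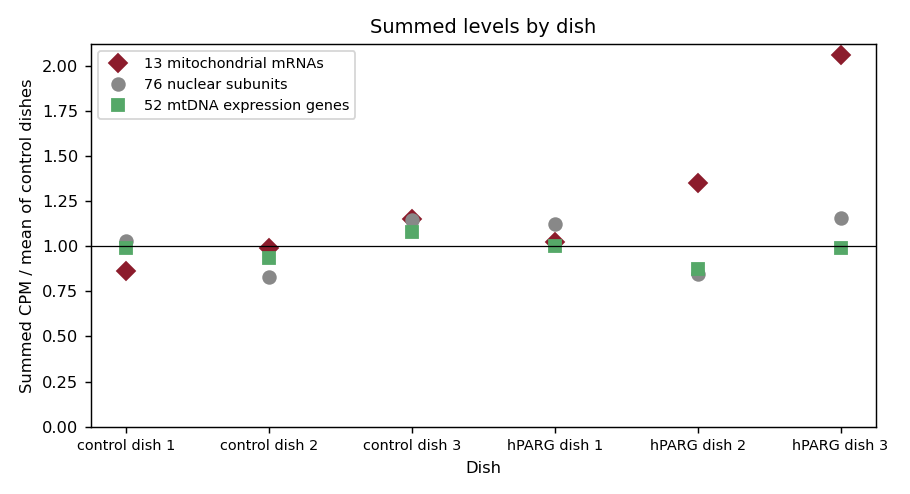
Summed CPM of the 13 mitochondrial mRNAs, of 76 nuclear subunits of the respiratory complexes and of 52 genes of mitochondrial DNA expression in each dish, each divided by its mean over the control dishes. The mitochondrial sum in hPARG dish 3 stands above every other point, and the nuclear sums of both dishes numbered 2 lie below 1.

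Genes that copy, transcribe, process, stabilise or degrade mitochondrial nucleic acids were examined as a list of 52, of which 51 were tested. None passed the FDR. Of these genes, 9 had higher and the others lower means in hPARG dishes, with a median log2 fold change of -0.09. Without control dish 3, 22 were higher, and without hPARG dish 2, 17. All 3 hPARG dishes lay below all control dishes for 7 of 51 (13.7%, against 6% of all tested genes), and for none did they lie above. At an unadjusted p under 0.05 there were 3, all lower, where 2.54% of all tested genes were lower at this p. There was 1 without control dish 1 (218 of 11594 tested genes lower), control dish 3 (201 of 11694) or hPARG dish 3 (169 of 11636).

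Among the transcription genes, Tfam, which packages mitochondrial DNA and starts transcription, was at 62.5, 63.9 and 60.9 CPM in the control and 60.2, 56.2 and 56.4 CPM in the hPARG dishes (log2 fold change -0.12, standard error 0.0902). The groups did not overlap, but the difference did not pass the test (FDR = 0.999). For Polrmt, the mitochondrial RNA polymerase, the log2 fold change was -0.16 (standard error 0.11), for Tfb2m, which melts the promoter, -0.05, and for Tefm, the elongation factor, -0.11. Each missed the threshold (FDR = 0.999), and the sign for Tefm turned without control dish 3 and without hPARG dish 2.

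Among the genes of tRNA processing, Trmt10c, a subunit of the RNase P that cuts the 5′ end of mitochondrial tRNAs, was at 30.97, 33.2 and 36.8 CPM in the control and 30.01, 27.1 and 27.1 CPM in the hPARG dishes. Its log2 fold change was -0.26 (standard error 0.109, unadjusted p = 0.0422, FDR = 0.999). The gene of the nuclease subunit of the same RNase P, named 1110008L16Rik in the table, had a log2 fold change of 0.12, the lowest p among list members higher in hPARG cells (FDR = 0.999). Elac2, which cuts the 3′ end of tRNAs, had -0.09. In the rRNA modification group, Rpusd4, a pseudouridine synthase of the 16S rRNA, had the lowest p of the list, with control dishes between 9.89 and 12.3 CPM, hPARG dishes between 7.70 and 9.40 CPM and a log2 fold change of -0.40 (standard error 0.139, unadjusted p = 0.0204, FDR = 0.999).

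In the group of mRNA stability and decay, Fastkd5, which takes part in maturing mRNAs not flanked by tRNAs, had a log2 fold change of -0.27 (unadjusted p = 0.0245, FDR = 0.999) and was named after its value was seen. Lrpprc, which with Slirp binds and stabilises mitochondrial mRNAs, was at -0.14 on the same scale (standard error 0.144). Slirp itself was at 30.1, 20.6 and 34.8 CPM in the control and 30.7, 21.5 and 51.0 CPM in the hPARG dishes. Its log2 fold change of 0.27 (standard error 0.317) turned to -0.13 without hPARG dish 3. For Mtpap, the mitochondrial poly(A) polymerase, the value was -0.02, for Pnpt1 and Supv3l1, which form the RNA degrading complex, -0.10 and -0.17, and for Grsf1, a protein of the RNA granules, -0.07. Mtpap, Pnpt1 and Grsf1 changed sign on leaving out at least 1 of the 6 dishes, and none of the 6 genes from Lrpprc on passed the test (FDR = 0.999 for each).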

How the data were processed

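Poly(A) RNA from 6 dishes was sequenced as paired reads, and the authors trimmed them and used CLC Genomics Workbench to map them to GRCm38 (annotation of Ensembl 96). The authors deposited raw counts per gene, without normalization, and these were used. Their RPKM, TPM and CPM columns and the columns of their own comparison (fold changes, p-values and FDR) were not used. Coordinates and sequences are those of GENCODE release M21 on GRCm38, in which all 37 mt- identifiers were found.

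Genes were kept with filterByExpr (minimum count 10), scaled by TMM and compared with the quasi-likelihood test of edgeR 4.0.16 (R 4.3.3, limma 3.58.1), with Benjamini-Hochberg FDR over all 11509 tested genes. Each standard error was taken as |log2 fold change| over √F. CPM values are TMM-scaled. Shares were compared by exact permutation (scipy 1.17.1). Nothing says that dishes were set up independently beyond being separate cultures of 1 clone, so p-values measure the spread between these dishes. Windows of 150 bases were matched on both strands to all other GENCODE transcripts. The fit was also run on simulated data, with 200 genes changed more strongly than the mitochondrial mRNAs were. That run does not show whether changes of their size would be found.

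The members and lists were chosen with earlier results of these data known. Values are given for each of the 13 counted members, for 12 machinery genes set by name and for the lowest p in each direction of both lists. The alternatives were RLE size factors, library size only, normalization on nuclear genes, no filter, a stricter filter, the likelihood ratio test, DESeq2 1.42.0, the replicate block, each dish left out and both dishes numbered 2 left out.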

Additional observations from a re-analysis of the deposited data

How the results depend on the processing

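Every one of the 13 mitochondrial mRNAs was higher in hPARG dishes under each alternative (221 values for single genes in all), and none passed both thresholds under any. The number called was 0 throughout for these genes, for the machinery list and for the nuclear subunits, and without 1 dish in turn it was 0 to 0. The number with an FDR under 0.05 at any fold was 0 without the replicate block, also 0 to 0 with each dish left out. At an unadjusted p under 0.05, it was 8 in the reported fit and 7 with RLE size factors. It was 10 with the likelihood ratio test, 11 with DESeq2 and 13 with no filter. In the reported fit 1.42% of all tested genes were higher at this p. That share is not given for the alternatives, so their counts cannot be set against it. Over all genes, 10 were called in the reported fit, 16 with no filter, 19 without both dishes numbered 2, 22 with DESeq2, 23 with the block, 30 with the likelihood ratio test and 3 to 13 with each dish left out.

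Whether the dish numbers pair the samples is not stated in the study. Same-numbered dishes correlated with r = 0.0963, 0.61 and 0.168. Control dish 1 correlated best with hPARG dish 3 (r = 0.207) and control dish 3 with hPARG dish 1 (r = 0.335). These correlations of deviations from means of 3 dishes do not settle the question. With the replicate block, 12 of 13 genes had an FDR under 0.05 (all but mt-Atp8, FDR = 0.0787), with 2.87% of all tested genes, and 0 passed 2-fold. The count was 5 when DESeq2 was run with the replicate block and 12 when nuclear-gene normalization was, both chosen after seeing the data. The share of all tested genes at this FDR is not given for these fits. The standard errors of the block fit were 0.0698 to 0.221, and those from the 3 same-numbered differences themselves 0.117 to 0.485.

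With each dish left out, the difference in share (percentage points) ranged from 0.124 to 0.467 for all mitochondrial counts, from 1.12 to 1.78 for complex I, from -3.19 to -1.19 for complex IV, from 0.478 to 1.17 for complex V, from 0.0203 to 0.36 for mt-Nd6 and from -0.401 to 0.249 for complex III. Without both dishes numbered 2 it was 0.159 for complex III and -0.016 for mt-Nd6, against -0.0306 and 0.144 in all dishes. The cause was not tested.

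Log2 fold changes that turned sign, all uncalled, ranged with each dish left out from -0.284 to 0.0879 for Tefm, -0.128 to 0.519 for Slirp, -0.137 to 0.0924 for Mtpap, -0.182 to 0.00595 for Pnpt1, -0.128 to 0.0126 for Grsf1 and -0.0311 to 0.117 for Parg. The rRNA and tRNA shares were 0 in all dishes and had no alternative. Precision is limited by 3 dishes per group.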
